A study of Mus musculus with 12 samples.

Results

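Macrophages and other leukocytes were followed in embryonic mouse ventricles through 36 genes that mark these cells or carry their functions. The genes were chosen by name, and each was found in the deposited count table, which holds 40800 genes. The data are bulk RNA sequencing of heart ventricles at embryonic day 12.5, with 6 libraries of control genotype and 6 of Wnt gain-of-function genotype, in which activity of the Wnt signalling pathway is raised. The title of the series places the comparison in the setting of arrhythmia and of differences between the right and left ventricle. The labels give no strain, no engineered allele and no Cre driver, and do not say whether a library holds 1 embryo or pooled embryos, or whether the controls carry any allele. Separate animals are thus not stated, and the p-values reflect how far these libraries differ, which may be partly technical.

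Macrophages of the embryonic heart come from the yolk sac and fetal liver and settle in the tissue before birth. Their lineage depends on the transcription factor PU.1, encoded by Spi1, and on the receptor Csf1r, which binds the growth factors Csf1 and Il34. Many of their surface receptors have no signalling domain of their own and work through the adaptors Tyrobp and Fcer1g, whose ITAM motif recruits the kinase Syk. Resident macrophages of the heart clear debris, make complement C1q and carry scavenger receptors such as Mrc1.

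Controls held 10130088 to 17526325 counts each, and Wnt gain-of-function libraries 12127026 to 17184662. Levels are given as CPM, the usual depth-scaled count, relative to a library total that was corrected for composition by TMM, the trimmed mean of M values. Haemoglobin genes took 0.703% to 6.99% of the counts in controls and 0.995% to 8.52% in Wnt gain of function, with the highest share in Wnt gain-of-function replicate 5. That library also stood near the controls for direct Wnt targets. Its Axin2 level was 3.77 CPM, against up to 4.13 CPM in controls, and its Notum level was 1.18 CPM, against up to 0.874 CPM in controls and a median of 16.0 CPM across the Wnt gain-of-function libraries. Clustering on the correlations of the libraries' deviations from the group means, cut into 3, gave sets that crossed the genotypes. Set 1 held control replicates 1 and 6 and Wnt gain-of-function replicates 5 and 6, set 2 held control 2 and 3 and Wnt gain of function 1 and 2, and set 3 held control 4 and 5 and Wnt gain of function 3 and 4. Correlations between libraries of a set ran from 0.49 to 0.65 in set 2 and from 0.39 to 0.55 in set 3. In set 1 they ran only from -0.07 to 0.15. Wnt gain-of-function replicate 5 correlated more with control replicate 4 of set 3 (0.185) than with any library of set 1. Set 1 is thus a loose remainder. The labels do not say what the sets are.

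Log2 fold changes of the members were small for most genes and lay largely on one side of 0. After a filter on low counts, 33 of the 36 members were among the 14774 genes tested with edgeR's quasi-likelihood test. Skap1 and Syk were higher in Wnt gain of function at an adjusted p under 0.05, that is 2 of 33 members, where 0.433% of all tested genes were called higher. No member was called lower, where 0.0677% of all genes were, and no member was lower at an unadjusted p under 0.05 (2.57% of all genes). Log2 fold changes were above 0 for 30 of the 33 tested members, against 50.4% of all genes, and their median was 0.39 against 0.00 over all genes. At an unadjusted p under 0.05, 16 members were higher, where 3.73% of all genes were, so the greater number of these did not pass the adjusted threshold. The members were named with earlier results of these data known, and genes of 1 cell type vary together, so these counts describe the set and carry no test of their own.

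**Figure D1:**
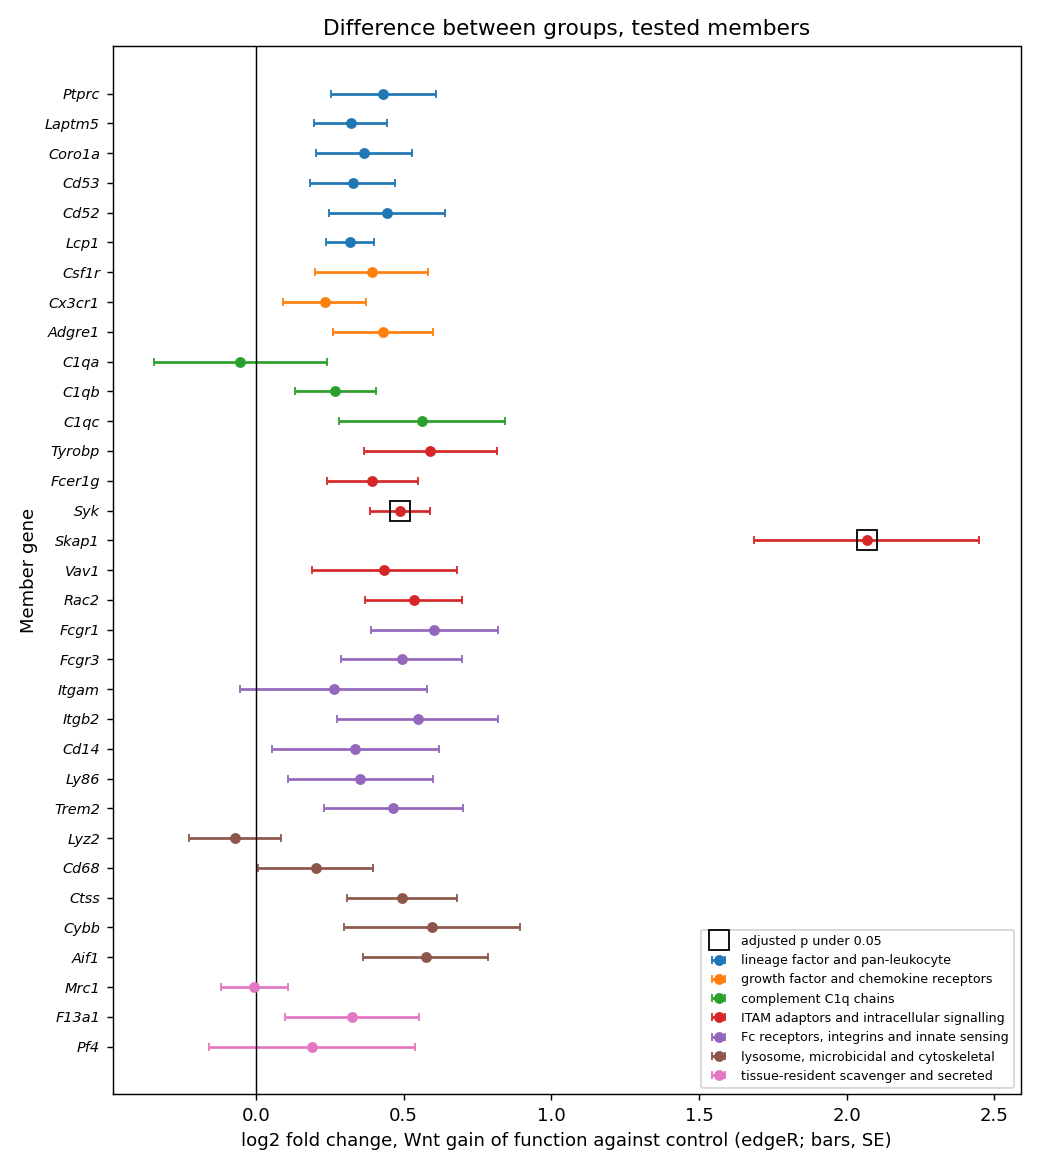
Log2 fold change of each of the 33 tested members, Wnt gain of function against control, with its SE from edgeR's quasi-likelihood fit. Colours give the role of the gene and open squares mark the 2 members with an adjusted p under 0.05, Skap1 and Syk. Points lie right of 0 except for C1qa, Lyz2 and Mrc1.

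The members' CPM summed to 282 in the lowest control, 329 at the control median and 346 in the highest control. In Wnt gain of function the sum was 357 at the lowest, 376 at the median and 438 at the highest, so the groups did not overlap. This separation rested on Lyz2 and Pf4, which were highest in Wnt gain-of-function replicate 5. Without these 2 members the sums ran from 209 to 268 CPM in controls and from 238 to 368 CPM in Wnt gain of function, and replicate 5 lay below control replicates 2, 3 and 5. Libraries of Wnt gain of function were not alike in this. Replicates 1 and 2, both of set 2, held the highest level of 25 of the 36 members, and control replicate 1 held the lowest level of 15. In Wnt gain-of-function replicate 5 the median member lay at -0.03 on the log2 scale against the control mean, against 0.65 in replicate 2. In bulk tissue a larger number of macrophages, more RNA of these genes per macrophage and such RNA from other cells cannot be told apart.

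**Figure D2:**
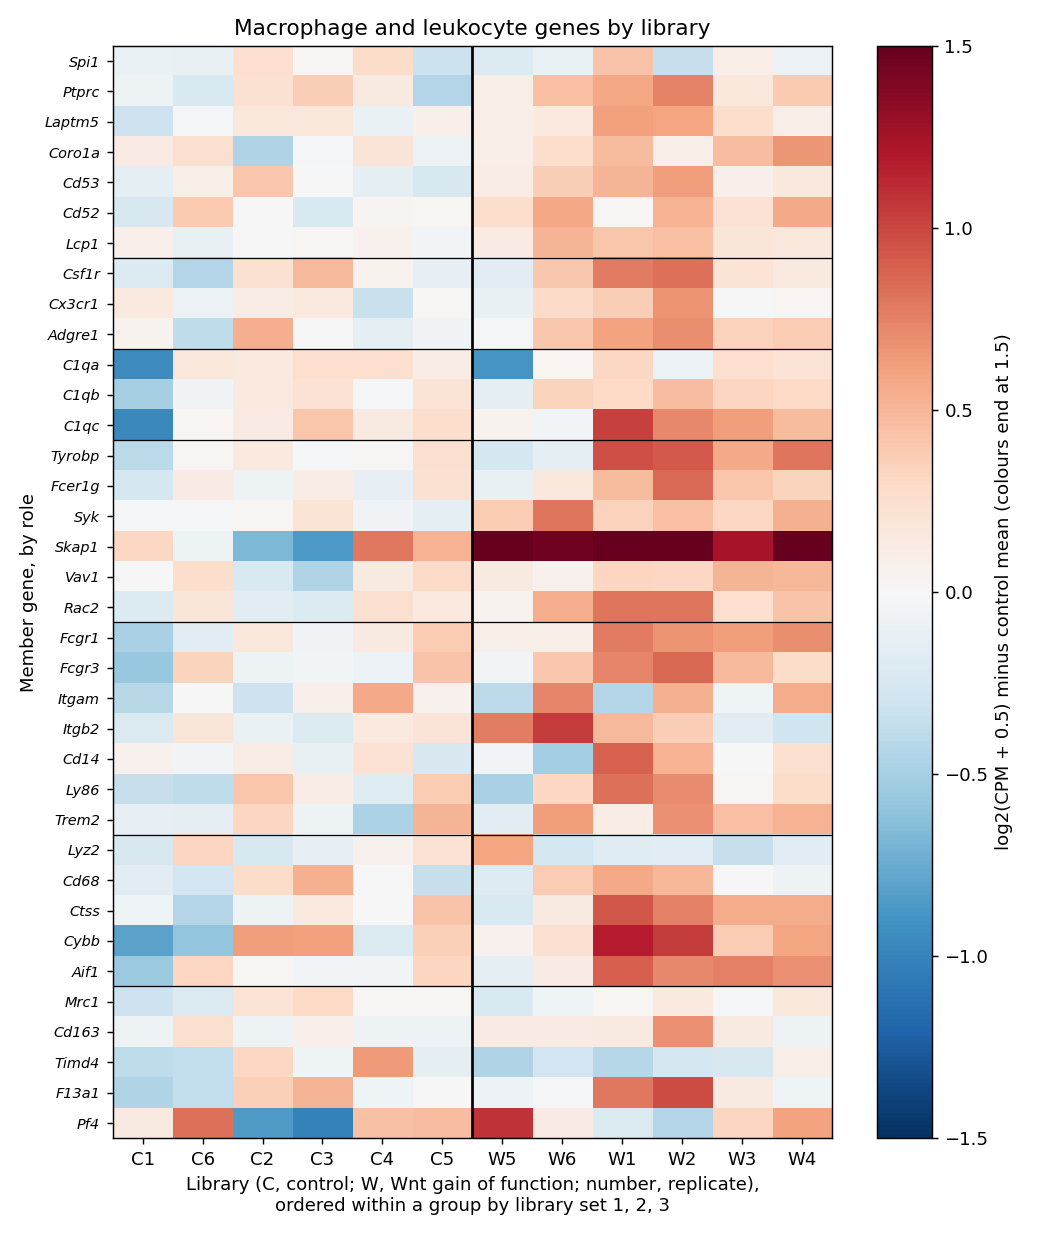
Each row is 1 of the 36 members, grouped by role, and each column 1 library, with colour showing log2(CPM + 0.5) minus the mean of the 6 controls (colours end at 1.5). Replicates W1 and W2 are red over most rows, W5 is close to the control level over many rows, and Skap1 is red in all 6 Wnt gain-of-function libraries.

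Genes shared by all leukocytes had similar log2 fold changes, and none of them passed the adjusted threshold. All 6 tested genes of this role were higher at an unadjusted p under 0.05, where 3.73% of all genes were. Their log2 fold changes ran from 0.32 to 0.45, and genes of 1 cell type vary together. Lcp1, the leukocyte plastin that bundles actin, had the lowest p. Its control levels were 41.1, 44.4 and 46.5 CPM at the lowest, median and highest, and its Wnt gain-of-function levels were 48.3, 54.6 and 63.3 CPM, so every Wnt gain-of-function library lay above every control. The log2 fold change was 0.32 ± 0.0808 (SE), with an unadjusted p of 0.00120 and an adjusted p of 0.146 in edgeR. Lcp1 was called in DESeq2 (adjusted p = 0.0324), where 0.914% of all genes were called higher. It was also called in edgeR with a block for library set (adjusted p = 0.0245), where 1.32% were. The sets were found from these same counts, so that block lowers the scatter by construction and the call adds no separate support. Lcp1 was not called with the closest pairs of libraries summed (adjusted p = 0.6253) or in limma-voom (0.207). Only 3 members, Lcp1, Syk and Skap1, had groups that did not overlap, and 0.298% of all tested genes did so in this direction.

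Ptprc encodes CD45, the phosphatase on the surface of leukocytes. It measured 2.92, 4.25 and 5.51 CPM in controls (lowest, median, highest) and 4.44, 5.72 and 7.27 CPM in Wnt gain of function, a log2 fold change of 0.43. Laptm5, a lysosomal membrane protein of blood cells, measured 13.3, 16.9 and 18.7 CPM in controls and 17.8, 19.2 and 25.7 CPM in Wnt gain of function. For both genes all 6 Wnt gain-of-function libraries lay above the control median, with overlap at the edges. Cd53, a tetraspanin of leukocytes, measured 6.75, 7.70 and 10.8 CPM in controls and 8.47, 9.80 and 12.7 CPM in Wnt gain of function. Coro1a, an actin-binding protein, measured 2.88, 4.27 and 4.95 CPM in controls and 4.40, 5.43 and 6.75 CPM in Wnt gain of function. Cd52, a short anchored glycoprotein, measured 1.42, 1.80 and 2.47 CPM in controls and 1.79, 2.49 and 2.88 CPM in Wnt gain of function. Exons of Coro1a overlap Bola2 and exons of Cd52 overlap Crybg2 on the opposite strand, and whether counting used strand is not given in the sources used here, so reads of these pairs cannot be told apart. Spi1, the PU.1 gene, had only 3 to 11 counts per library and was not tested. It measured 0.517 ± 0.161 CPM in controls and 0.497 ± 0.198 CPM in Wnt gain of function (SD, n = 6 each), and without the filter its log2 fold change was -0.08.

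Of the growth factor and chemokine receptors, Csf1r carries the survival signal of macrophages. It measured 7.73, 10.44 and 15.2 CPM in controls (lowest, median, highest) and 9.47, 13.3 and 19.4 CPM in Wnt gain of function. The highest levels in both groups were in set 2, and the groups overlapped broadly. Its log2 fold change was 0.39 ± 0.191 (SE), with an adjusted p of 0.82 in edgeR. Its exons overlap Hmgxb3 on the opposite strand, which had 724 counts in the 6 controls and 786 in the 6 Wnt gain-of-function libraries. Adgre1, the gene of the macrophage marker F4/80, measured 4.33, 5.64 and 8.63 CPM in controls and 5.70, 7.77 and 9.67 CPM in Wnt gain of function, a log2 fold change of 0.43. Cx3cr1, the fractalkine receptor, had a log2 fold change of 0.23, and 3 of the 6 Wnt gain-of-function libraries lay above the control median.

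The 3 chains of complement C1q, which start the classical complement pathway and are made chiefly by macrophages, held no called gene. C1qa measured 0.619, 1.90 and 2.07 CPM in controls (lowest, median, highest) and 0.666, 1.84 and 2.17 CPM in Wnt gain of function. C1qb measured 7.34, 11.1 and 12.3 CPM in controls and 9.55, 13.2 and 14.8 CPM in Wnt gain of function. C1qc measured 0.619, 1.90 and 2.41 CPM in controls and 1.62, 2.71 and 3.96 CPM in Wnt gain of function. The log2 fold changes were -0.05 for C1qa, 0.27 for C1qb and 0.56 for C1qc, and none had an unadjusted p under 0.05. Control replicate 1 was the lowest control for all 3 chains. Per length the chains also differed, with control levels of 9.82 CPM per kb of exon for C1qb, 1.66 for C1qa and 0.921 for C1qc.

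The ITAM adaptors and the signalling proteins beneath them held both called members and the highest median of the 7 roles, a log2 fold change of 0.51 over 6 genes. Close to it were the medians of lysosomal, microbicidal and cytoskeletal genes (0.50) and of Fc receptors, integrins and innate sensors (0.47). Syk is the kinase that ITAM receptors recruit. It measured 15.2, 16.7 and 19.6 CPM in controls (lowest, median, highest) and 21.1, 22.7 and 30.0 CPM in Wnt gain of function. Every Wnt gain-of-function library lay above every control, replicate 5 included at 22.2 CPM. The log2 fold change was 0.49 ± 0.1005 (SE), with an adjusted p of 0.0404 in edgeR. Its annotated exons overlap no other gene.

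Skap1, an adaptor best known from T cells, where it links receptor signalling to integrin adhesion, rose most of the members. It measured 0.115, 0.721 and 1.43 CPM in controls and 2.14, 2.98 and 3.57 CPM in Wnt gain of function, from 2 to 18 counts per control library and 26 to 56 per Wnt gain-of-function library. The groups did not overlap, and replicate 5 had 3.03 CPM. The log2 fold change was 2.07 ± 0.382 (SE), with an adjusted p of 0.0216 in edgeR. An antisense gene that overlaps it, 2010300F17Rik, had 0 to 3 counts per library. Both calls depended on single libraries, since neither gene was called without control replicate 6 or without Wnt gain-of-function replicate 1, 2 or 4, and Syk alone was lost without control replicate 1, 2, 4 or 5 or Wnt gain-of-function replicate 6. In limma-voom the adjusted p was 0.0504 for Skap1 and 0.0877 for Syk, and 3 pairs of libraries were far closer to each other than any other pair, whose summing into 1 sample each gave 0.208 in edgeR for both genes. Skap1, Syk and Lcp1 were called without replicate 5 of Wnt gain of function (edgeR adjusted p = 0.0175, 0.0279 and 0.04997). In that fit 1% of all genes were called higher, and the members' median was 0.48. That replicate was singled out because it stood near the controls for Wnt targets in these same counts. These calls thus add no separate support. In the authors' deposited table Skap1 was the 1 member called, with a log2 fold change of 2.46 and an adjusted p of 0.0343, where 0.13% of all genes were called, and Syk had an adjusted p of 0.131.

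The other 4 genes of this role did not pass the adjusted threshold. Tyrobp, the adaptor also called DAP12, measured 3.36, 4.69 and 5.54 CPM in controls (lowest, median, highest) and 3.77, 7.74 and 9.47 CPM in Wnt gain of function, a log2 fold change of 0.59. Its Wnt gain-of-function libraries split by set. Replicates 5 and 6 of set 1 lay within the controls and the other 4 lay above all controls. Fcer1g, the common gamma chain of Fc receptors, measured 7.08, 8.75 and 10.2 CPM in controls and 7.92, 11.3 and 15.9 CPM in Wnt gain of function. Rac2, the Rac GTPase of blood cells, measured 4.25, 4.95 and 5.96 CPM in controls and 5.18, 7.14 and 9.03 CPM in Wnt gain of function, with an adjusted p of 0.306 in edgeR. Vav1, an exchange factor for Rac proteins, had a log2 fold change of 0.44 at 0.919 CPM in controls.

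**Figure D3:**
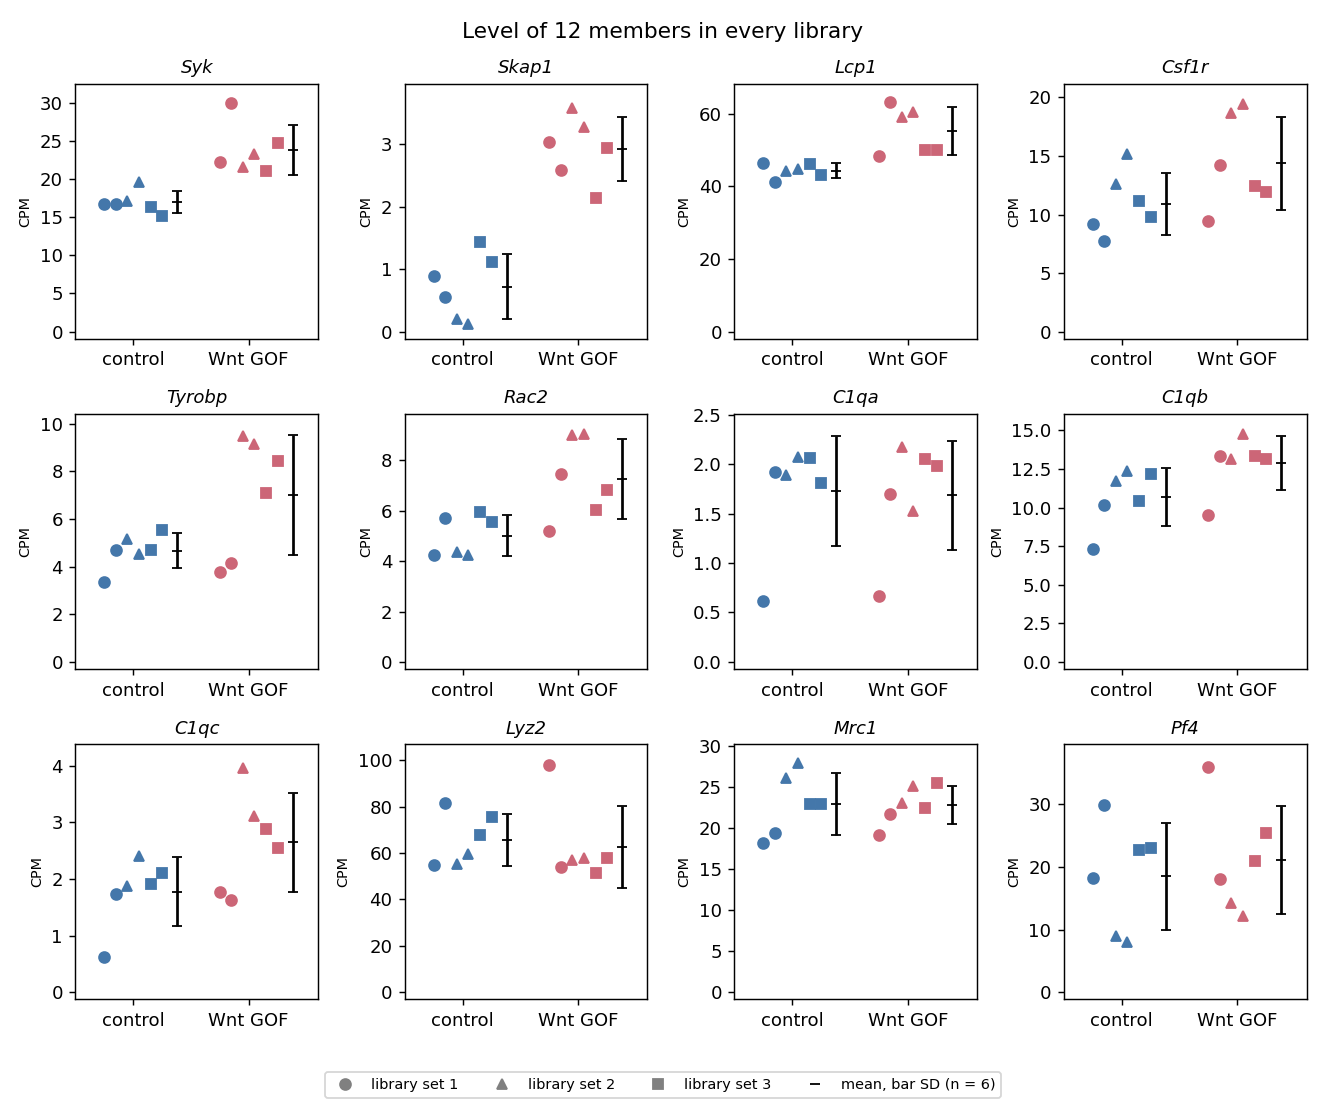
Level in CPM of 12 members in each of the 12 libraries, with marker shape for the library set and a bar for the mean and SD of 6 libraries. Syk, Skap1 and Lcp1 do not overlap between groups, Tyrobp is high in 4 of 6 Wnt gain-of-function libraries, and Lyz2 and Pf4 are highest in Wnt gain-of-function replicate 5.

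Promoter sequences were matched for 26 of the 36 members in RefSeq's annotation of GRCm38.p6, giving 32 start sites with the 250 bases before each. The core GAGGAA, which PU.1 sites contain, was present on either strand in 18 of the 32 (56.2%), against 23.3% of 32851 promoters of the genome. The core CTTTGA of TCF/LEF sites was in 15.6% of member promoters and 13.8% of all, and the core TGTGGT of RUNX sites in 15.6% and 14%. These are letters in a window and were not tested as binding sites. The promoters below are shown for Syk, the called member with a match, and for C1qb and Aif1, which encode macrophage products with a single PU.1 core close to the start. They run 5′ to 3′ toward the start of the gene, with the cores, read on either strand, in capitals. The Syk sequence lies at chr13:52596632-52596881 on the plus strand before the second annotated start, and its capitals join the overlapping cores CTTTGA and GAGGAA. The 250 bases before the first Syk start hold none of the 3 cores. The C1qb sequence lies at chr4:136886201-136886450 and the Aif1 sequence at chr17:35176053-35176302, both on the minus strand.
Syk: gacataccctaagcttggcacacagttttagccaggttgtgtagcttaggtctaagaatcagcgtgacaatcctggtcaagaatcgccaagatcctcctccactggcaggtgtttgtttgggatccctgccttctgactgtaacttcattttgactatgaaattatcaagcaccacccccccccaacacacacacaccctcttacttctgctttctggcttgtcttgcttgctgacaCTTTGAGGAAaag
C1qb: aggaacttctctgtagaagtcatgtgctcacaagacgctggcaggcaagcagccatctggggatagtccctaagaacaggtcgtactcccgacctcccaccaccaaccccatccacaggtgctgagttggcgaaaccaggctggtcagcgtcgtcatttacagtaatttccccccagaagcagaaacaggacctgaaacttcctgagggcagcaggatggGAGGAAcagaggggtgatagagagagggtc
Aif1: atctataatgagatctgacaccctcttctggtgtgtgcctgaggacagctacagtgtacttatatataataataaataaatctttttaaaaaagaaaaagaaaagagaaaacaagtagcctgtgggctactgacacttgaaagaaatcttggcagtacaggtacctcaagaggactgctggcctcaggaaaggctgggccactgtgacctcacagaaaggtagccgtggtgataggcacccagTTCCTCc

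Among Fc receptors, integrins and innate sensors all 7 genes had log2 fold changes above 0, from 0.26 to 0.60, and none was called. Fcgr1, the high-affinity receptor for IgG, measured 1.33, 2.13 and 2.82 CPM in controls (lowest, median, highest) and 2.21, 3.51 and 3.88 CPM in Wnt gain of function, with an unadjusted p of 0.0127 and an adjusted p of 0.468 in edgeR. Fcgr3, a low-affinity IgG receptor, measured 2.48, 3.73 and 5.44 CPM in controls and 3.77, 5.49 and 7.503 CPM in Wnt gain of function, a log2 fold change of 0.49. For both receptors all 6 Wnt gain-of-function libraries lay above the control median and the ranges overlapped. The integrin chains Itgb2 and Itgam, which pair as complement receptor 3, had log2 fold changes of 0.55 and 0.26. Trem2, a lipid-sensing receptor that signals through Tyrobp, had 0.47. Ly86, a partner of the toll-like protein RP105, had 0.35, and Cd14, the coreceptor for lipopolysaccharide, had 0.34. Exons of Itgam overlap Gm49368, a protein-coding gene on the same strand, so reads of the shared stretch cannot be told apart.

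The lysosomal, microbicidal and cytoskeletal genes had log2 fold changes from -0.07 to 0.60. Ctss, the lysosomal protease cathepsin S, measured 8.91, 12.1 and 16.7 CPM in controls (lowest, median, highest) and 10.44, 18.3 and 23.9 CPM in Wnt gain of function, with an adjusted p of 0.527 in edgeR. Aif1, the calcium-binding protein Iba1, measured 2.57, 3.99 and 5.14 CPM in controls and 3.63, 6.86 and 7.92 CPM in Wnt gain of function, with an adjusted p of 0.505. Both had 5 of 6 Wnt gain-of-function libraries above the control median. Cybb, the catalytic subunit of the phagocyte oxidase, had a log2 fold change of 0.60 ± 0.298 (SE), and the lysosomal glycoprotein Cd68 had 0.20. Lyz2, the macrophage lysozyme, had -0.07 and measured 65.7 ± 11.2 CPM in controls and 62.7 ± 17.5 CPM in Wnt gain of function (SD, n = 6 each). In 5 of the 6 Wnt gain-of-function libraries it lay below the control median, and replicate 5 had 98.1 CPM. Lyz2 has a near-identical neighbour, Lyz1, so the division of reads between them is uncertain. Lyz1 had 887 counts in the 6 controls and 1454 in the 6 Wnt gain-of-function libraries, a log2 fold change of 0.59 with an adjusted p of 0.228 in edgeR. Both genes summed had a median of 73.1 CPM in controls and 74.2 CPM in Wnt gain of function.

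Of 5 genes of tissue-resident scavenging and secretion, 3 were tested and none was called, with a median log2 fold change of 0.19. Mrc1, the mannose receptor, measured 22.9 ± 3.76 CPM in controls and 22.8 ± 2.31 CPM in Wnt gain of function (SD, n = 6 each), a log2 fold change of -0.01 ± 0.113 (SE). F13a1, the A chain of coagulation factor XIII, had a log2 fold change of 0.33. Pf4, a chemokine of platelets that some macrophages also make, measured 7.98, 20.4 and 29.9 CPM in controls (lowest, median, highest) and 12.1, 19.5 and 35.9 CPM in Wnt gain of function. It was low in the 4 libraries of set 2 and highest in Wnt gain-of-function replicate 5. The platelet chemokine Ppbp ranged from 1.61 to 10.3 CPM in controls and from 2.02 to 13.6 CPM in Wnt gain of function, and the part of platelet RNA in the Pf4 values was not tested. Cd163, a haemoglobin scavenger receptor, had 0 to 6 counts per library, and Timd4, a receptor for dying cells, had 2 to 11, so neither was tested. Without the filter their log2 fold changes were 1.41 and -0.71, with unadjusted p of 0.1395 and 0.172 in edgeR.

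Per kb of exon, levels of the members covered a wide range in controls. Lyz2 was the highest at 49.96 CPM per kb, followed by Pf4 at 25.6, Fcer1g at 9.92, C1qb at 9.82 and Ctss at 9.20. Spi1 at 0.192, Timd4 at 0.190, Skap1 at 0.0959 and Cd163 at 0.00553 were the lowest. Skap1 thus ranked 35 of 36 by level while its log2 fold change was the highest of the tested members.

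To ask whether members moved apart from the macrophage receptor itself, the ratio of each other tested member to Csf1r was compared between groups on the log2 scale with a two-sided exact permutation test over all 924 assignments of the group labels, for 32 ratios. Of these, 14 were higher and 18 lower in Wnt gain of function. The Skap1 ratio differed by 1.23 with p = 0.00216, the smallest value this exact test can give, and a Benjamini-Hochberg value of 0.0693 over the 32 ratios. The Mrc1 and Cd68 ratios differed by -0.36 and -0.17 (exact permutation p = 0.0411 and 0.0390, Benjamini-Hochberg value 0.439 for both). No ratio passed after adjustment, which a single ratio at the smallest p could not do over 32 ratios. The test also takes the libraries as independent, without the sets.

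The library sets, each with 2 libraries per genotype, are given as values with no test, and set 1 is a loose set. In set 1, 28 of the 33 tested members were above 0 with a median log2 difference of 0.32, and in 11 of them (33.3%) both Wnt gain-of-function libraries lay above both controls, against 14.5% of all genes. In set 2 the numbers were 31 above 0, a median of 0.45 and 27 so separated (81.8%), against 27.8% of all genes. In set 3 they were 30 above 0, a median of 0.22 and 20 so separated (60.6%), against 23.3% of all genes. Skap1 differed by 1.44, 2.58 and 0.78 on the log2(CPM + 0.5) scale in sets 1, 2 and 3, and Syk by 0.62, 0.28 and 0.53. Tyrobp differed by -0.02, 0.88 and 0.55, with the value of set 1 near 0.

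Because Skap1 is known from T cells, genes of that lineage were examined. Of 19 genes of T and natural killer cells, 5 were tested and none was called, with a median log2 fold change of 0.22. Cd3e, a chain of the T cell receptor complex, had 0 counts in every control and 0 to 2 in Wnt gain of function. Other defining T cell genes were also near 0, with 0 to 4 counts of Cd4 and 0 to 6 of Cd8a per control library, and 0 to 4 and 0 to 3 in Wnt gain of function. Lck, the kinase that starts T cell receptor signalling, had a log2 fold change of -0.07. Lcp2 and Fyb, adaptors that T cells and myeloid cells share, had 0.15 and 0.27. Zap70, the T cell relative of Syk, was below the filter. It had 0 to 5 counts per control library, while Wnt gain-of-function replicates 1 to 6 had 21, 38, 9, 16, 2 and 9. In the fit without a filter, in which 0.350% of genes were called higher, its log2 fold change was 2.76 ± 0.558 (SE) with an adjusted p of 0.0218 in edgeR, and the adjusted p ran up to 0.0777 with single libraries left out, missing the threshold in 7 of 12 such fits.

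**Figure D4:**
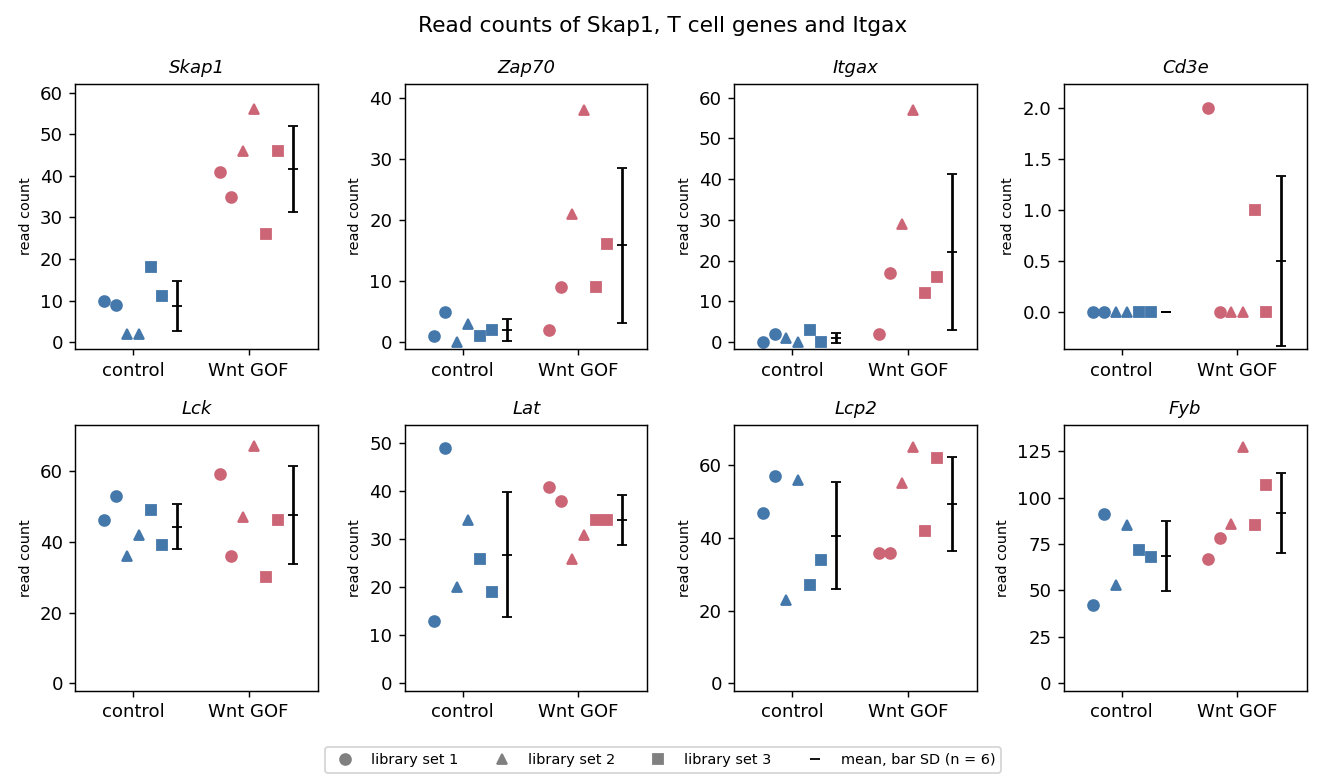
Read counts, not scaled for depth, of Skap1, of 6 genes of T cells and of Itgax in each library, with marker shape for the library set and a bar for the mean and SD of 6 libraries. Zap70 and Itgax are highest in Wnt gain-of-function replicates 1 and 2 and have 2 counts in replicate 5, whereas Skap1 has 41 counts there.

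Beside the members, 25 further macrophage genes were examined, of which 23 were tested. Their median log2 fold change was 0.07, against 0.39 for the members, and 12 were above 0. The difference between the lists was not tested. Some of the further genes were far more abundant than Csf1r, which had a control mean of 10.9 CPM. Control means were 683 CPM for Ctsb, 190 CPM for Lgmn and 166 CPM for Grn. Which cells gave these reads was not tested, so the 2 medians may not be alike in what they measure. Runx1, a transcription factor of blood formation, was the only one called. It measured 1.66 ± 0.317 CPM in controls and 5.60 ± 2.77 CPM in Wnt gain of function (SD, n = 6 each), a log2 fold change of 1.76 ± 0.317 (SE) with an adjusted p of 0.0184 in edgeR. The groups overlapped, since replicate 5 had 2.07 CPM and the highest control 2.12 CPM. Apoe, an apolipoprotein that macrophages secrete, had a log2 fold change of 0.27 with an adjusted p of 0.306 in edgeR. At an unadjusted p under 0.05, 4 of the 23 were higher and 1 was lower, where 3.73% and 2.57% of all genes were. The lower gene was Lgmn, at -0.18 (unadjusted p = 0.0112 in edgeR). Irf8, also among the 11 below 0, had -0.39 (unadjusted p = 0.0621 in edgeR). Outside these 25, Itgax, the integrin CD11c, was listed with the monocyte and antigen presentation genes. Itgax had 0 to 3 counts per control library and 2 to 57 per Wnt gain-of-function library. It was below the filter, and without a filter it was called with an adjusted p of 0.0273. No gene of the other 10 cell type and ligand lists was called in the filtered fit.

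Of 15 ligands that support or recruit macrophages, 8 were tested. Csf1, the main ligand of Csf1r, measured 8.49 ± 1.95 CPM in controls and 9.55 ± 1.56 CPM in Wnt gain of function (SD, n = 6 each). Il34, its second ligand, was below the filter, and Cx3cl1, the ligand of Cx3cr1, had a log2 fold change of -0.13. Ccl2, which recruits monocytes, had 0.17. Cxcl12, a chemokine that retains blood cells in tissue, measured 186 ± 27.1 CPM in controls and 134 ± 33.1 CPM in Wnt gain of function. That is a log2 fold change of -0.47, and the adjusted p was 0.282 in edgeR (0.00431 before adjustment).

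Markers of other cells were measured beside the members. Among 12 monocyte and antigen presentation genes, of which 5 were tested, Plac8 and Cd74 had log2 fold changes of 0.82 and 0.67. Of 14 granulocyte and mast cell genes 4 were tested, with a median of 0.32, among them Hdc, the histamine-forming enzyme, at 0.50 and Cpa3, a mast cell protease, at 0.59. Without the filter 4 of the 13 genes with counts were above 0 and the median was -0.08. The 1 tested gene of 8 B cell genes was Cd79b at 0.65, and without the filter the median of 6 was -0.26. The median log2 fold change was 0.13 over 9 megakaryocyte and platelet genes, where Clec1b had -0.26 and Gp1ba 0.53, and 0.04 over 11 erythroid genes, where Rhag had 0.37 and Epor -0.12. It was 0.05 over 13 endothelial and endocardial genes, where Npr3 had 0.44 and Tek 0.16, -0.08 over 12 cardiomyocyte genes, where Myh6 had 0.26 and Actn2 -0.28, and -0.04 over 13 epicardial, fibroblast and mural genes, where Col1a2 had -0.32 and Col1a1 -0.52. The part of these other cells in the members' values was not tested.

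**Figure D5:**
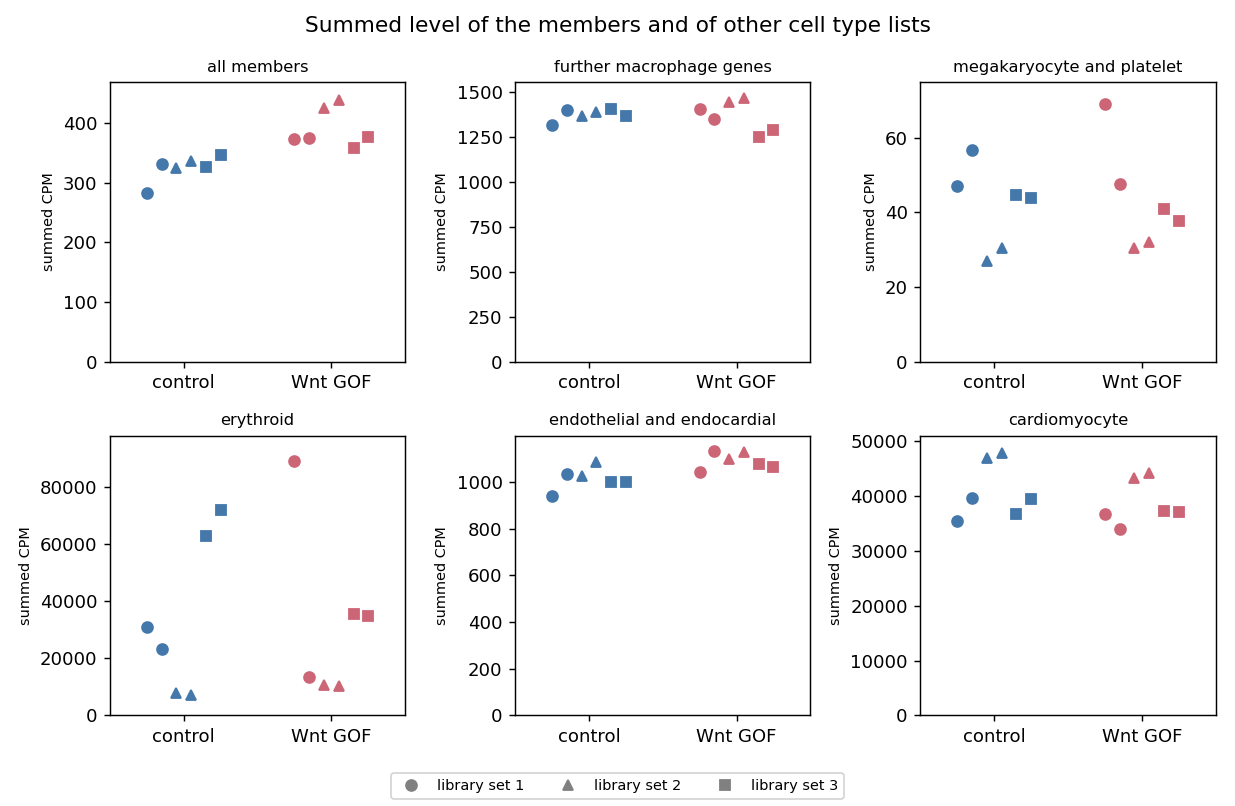
Summed CPM of the 36 members and of 5 other lists in each library, with marker shape for the library set. The members' sums lie between 282 and 346 in controls and between 357 and 438 in Wnt gain of function, while the other 5 sums overlap between groups. Without Lyz2 and Pf4 the members' sums overlap too.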

How the data were processed

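Per the labels' protocols, RNA came from a Trizol extraction and was sequenced from Illumina libraries. The submitters' processing notes name Subread, featureCounts and edgeR. No source used here gives the genome build, the strand setting or the versions. The authors' deposited count table holds whole-number counts in 41422 rows. Repeated rows (622) of 402 gene IDs were left out. The authors' deposited comparison table gives log2 values, p-values and a log-odds score, per the file headers, and the deposited fold ratio and the GC percent column were not used.

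Members and gene lists were chosen with earlier results of these data known. The counts went through edgeR 4.0.16 in R 4.3.3: filterByExpr with a minimum count of 10, TMM scaling (trimmed mean of M values), and a robust quasi-likelihood test of group alone. Benjamini-Hochberg adjustment covered 14774 genes, with calls under 0.05. Members with an unadjusted p under 0.05, called members, Csf1r, C1qa, Tyrobp, Fcer1g, Pf4 and Skap1 are given with their spread, and of each other list the called genes or the 2 lowest p. Itgax was named after its values were seen. Alternatives were the replicate block, other scalings, DESeq2 1.42.0, voom of limma 3.58.1, other filters, a threshold of 0.01, haemoglobin genes left out and each library left out. Chosen with the data seen were a block of library sets (average-linkage clustering cut into 3), the closest pairs summed, and single libraries left out for Zap70 and Itgax without a filter. Exon lengths are from GENCODE M21.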

Additional observations from a re-analysis of the deposited data

Results flagged for a closer look

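Of 72 groups of 6 libraries, 1 per member and genotype, 5 had a library standing apart from the others by a gap large against the range of the group. Chance gives this in about 5% of groups. C1qa was lowest in control replicate 1 at 0.619 CPM. C1qb was lowest among Wnt gain-of-function libraries in replicate 5 at 9.55 CPM, and Lyz2 was highest there at 98.1 CPM. The other pair are genes under the count filter: Cd163 was highest in Wnt gain-of-function replicate 2 at 0.352 CPM, from 6 counts, and Timd4 was highest among Wnt gain-of-function libraries in replicate 4 at 0.446 CPM, from 7 counts.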

How the results depend on the processing

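Over 24 alternatives, 30 to 32 members lay above 0 and their median log2 fold change was 0.35 to 0.48, so the side of 0 moved little and the calls moved more. Main counts were 2 members higher, 0 members lower, 74 genes in all and 1 gene of the other lists. The replicate block gave 1 member (Skap1, with Syk at an adjusted p of 0.125) and 0 of the other lists. The labels do not say whether libraries with the same number are matched. Correlations of their deviations ran from -0.405 to 0.493, which cannot decide it. Library size alone gave 1 member, limma-voom 0 members, 6 genes in all and 0 of the other lists, and DESeq2 160 genes in all. An adjusted p under 0.01 gave 0 members, 10 genes and 0 of the other lists, and no filter gave 3 genes of the other lists. Chosen after seeing the data, the library sets as a block gave 5 members (Ctss, Cybb, Lcp1, Skap1 and Syk), 295 genes and 5 of the other lists, and the closest pairs summed gave 0 members, 1 gene and 0 of the other lists. Leaving out 1 library gave 0 to 3 members, 39 to 177 genes and 1 to 3 of the other lists. No member was called without control replicate 6 or Wnt gain-of-function replicate 1, 2 or 4, and 3 were called without replicate 5.

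Across 23 alternatives Skap1 was called in 17 with a log2 fold change of 1.80 to 2.45, Syk in 10 with 0.41 to 0.54, and Lcp1 in 3. In the fit without a filter, leaving out 1 library lost Itgax in 8 of 12 fits, up to an adjusted p of 0.101. Signs changed for 4 members near 0. Mrc1 was 0.0035 with the replicate block, 0.0076 with library size alone, 0.0065 in limma-voom, 0.0028 with the library sets as a block and 0.013 with pairs summed, and ran from -0.069 to 0.064 with single libraries left out. With single libraries left out, C1qa ran from -0.22 to 0.11, Lyz2 from -0.24 to 0.0026 and Pf4 from -0.026 to 0.39, with Pf4 below 0 only without Wnt gain-of-function replicate 5 and Lyz2 above 0 only without control replicate 6. The causes were not tested. Low counts limit Spi1, Cd163, Timd4, Zap70 and Skap1 in controls.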

Other observations

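Genes of neutrophil granules, named after their values were seen, are given by library for both controls of set 2. S100a8 had 19 counts in control replicate 2 and 18 in replicate 3, and 1 to 5 in every other library. S100a9 had 8 and 17 counts in those libraries and 0 to 3 in the others, and Ngp had 2 and 10 counts there and 0 to 4 in the others. Camp had 3 and 9 counts there and 0 to 1 in the others. Ngp was not highest in both, since control replicate 4 had 4 counts. Ltf was not either, with 5 and 6 counts there against 10 in control replicate 6. Mpo had 21 and 29 counts there against 26 in Wnt gain-of-function replicate 6, so it was not. Control replicates 2 and 3 were also a close pair. Wnt gain-of-function replicates 1 and 2 of the same set were another, with 3 and 5 counts of S100a8.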
